A study of Rattus norvegicus with 24 samples.

Results

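Cardiac fibroblasts taken from rats aged 3-4 weeks were compared with those taken from rats aged 0-3 days, after both had been kept for 24 h in medium with 33 mM glucose, called high glucose here. The comparison rests on 6 of the 24 RNA-seq libraries of the series, 3 of each age, chosen by their age and glucose labels. The other 18 libraries hold the same ages in 5.5 mM glucose and 2 older ages at both glucose levels. All cells were primary cultures in DMEM with fetal bovine serum and antibiotics, seeded in multiwell plates, and the labels name no transgene or drug. Strain, sex, passage number and whether the libraries of a group came from separate animals are not given in the sources used here. The p-values therefore measure the spread between libraries of a group, which may be technical. That spread was estimated over all 24 libraries of the series, and the fit took same-numbered libraries of the 2 glucose levels as independent. The question put by the design is how the expression profile of these cells differs with age when glucose is high.

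Cardiac fibroblasts make and turn over the collagen-rich matrix that surrounds heart muscle cells, and they become contractile myofibroblasts when activated. The first weeks of life are the time in which the rodent heart leaves its fetal growth programme, heart muscle cells stop dividing and the matrix gains fibrillar collagen. Freshly isolated neonatal fibroblast cultures are also known to carry some heart muscle cells, and cultures of any age can carry macrophages and endothelial cells.

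The 3-4 weeks libraries held 19257141 to 21394280 counts and the 0-3 days libraries held 20207335 to 21836249. The first principal component of the 6 libraries took 68.3% of the variance and separated the ages. Library 1 of the 3-4 weeks cells stood apart from its group on the second component (12.7% of the variance), with 988 genes more than 2-fold away from the mean of the other libraries of its group, against 826 for library 2 and 675 for library 3. It had the lowest summed level of 31 cell cycle genes, 982 CPM (counts scaled to a common library size, with TMM) against 3294 and 1911 CPM in 3-4 weeks libraries 2 and 3, and the highest of 20 macrophage and leukocyte genes, 1011 CPM against 416 and 353 CPM. In the 0-3 days group these sums were 3382 to 3450 CPM and 776 to 877 CPM. Checked against the fibroblast label, Col1a1, Col3a1, Thy1, Ddr2, Vim, Pdgfra and Tcf21 were all detected in all 6 libraries. The 14 fibroblast markers tested summed to 49670 to 53530 CPM in 3-4 weeks cells and 31400 to 34720 CPM in 0-3 days cells. Most of each sum was Col1a1 and Col3a1, so its difference with age is mainly that of these collagens. Dcn and Lum, also on the list, had lower levels at 3-4 weeks. Col1a2, Col15a1, Ogn, Mfap4 and Myh9 were listed with no count in any of the 6 libraries and are not described further.

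Between the ages, 3728 of 13806 genes tested differed (27.0%), by edgeR's quasi-likelihood test with Benjamini-Hochberg adjustment over all genes and a threshold of 0.05, which applies to every adjusted p given. Of these, 1921 were higher at 3-4 weeks (13.9% of all genes tested) and 1807 were lower (13.1%). The median change over all genes was -0.01 on the log2 scale. The counts given below for gene lists are to be read beside these shares of all genes. More than 2-fold, 351 genes were higher and 759 lower, 8.04% of all genes together. The 3 values of one age lay wholly outside those of the other for 5672 genes (41.1%). This held for 3489 of the 3728 called genes, so a lack of overlap stated below for a called gene adds little to its call. The count called was 2355 without 0-3 days library 2. A call on a named gene held when any 1 of the 6 libraries was left out, unless the gene's paragraph says otherwise. Fitted to the 6 high glucose libraries alone, 2135 genes were called, and 17 genes named here were not among them (adjusted p 0.0509 to 0.141). These were Acta2, Aldh1a3, Ccl2, Cd68, Cxcl1, Dhcr7, Epas1, Fzd2, Gfpt2, Icam1, Il6, Irf7, Lum, Slc2a1, Tgfb1, Tpm1 and Tyms, of which Acta2, Il6, Irf7, Lum and Tyms were also not called in the fit to the 12 libraries of both ages at both glucose levels (adjusted p 0.0642 to 0.0739). The genes of heart muscle, of fetal growth and of chemokine signalling were among the lower ones, and collagens, cholesterol synthesis genes and Igf1 among the higher ones.

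**Figure D1:**
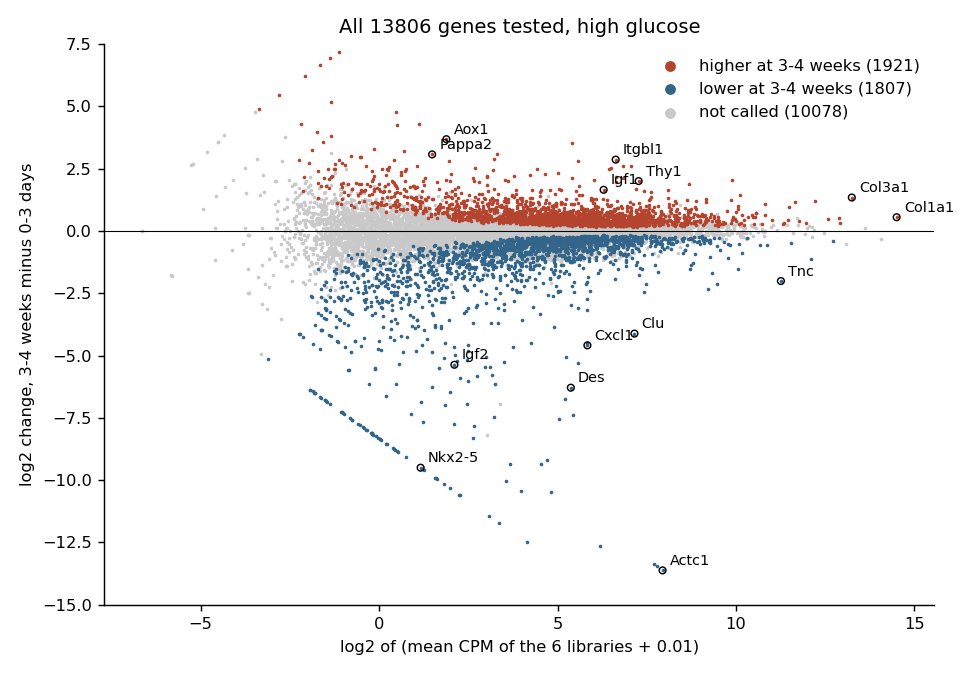
Each point is 1 of the 13806 genes tested in high glucose, with the log2 of its mean CPM over the 6 libraries (plus 0.01) on the x axis and its fitted log2 change, 3-4 weeks minus 0-3 days, on the y axis. The 1921 genes called higher are red, the 1807 called lower blue; the straight line of blue points at the lower left holds genes with no count at 3-4 weeks, whose fitted change depends on the prior count. Circles mark named genes, with Col1a1 and Col3a1 the most abundant of those circled and Actc1 at the bottom.

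The genes that rose most included enzymes, matrix proteins and a chemokine receptor. They were taken from called genes with a named symbol, a mean log2 CPM of at least 1 and ages that did not overlap. Aox1, an aldehyde oxidase (Rnor_6.0 chromosome 9, 64929694 to 65007884), had 8.56, 5.75 and 6.17 CPM in 3-4 weeks cells, against 0.471, 0.548 and 0.563 CPM in 0-3 days cells (log2 change 3.68, SE 0.39, adjusted p = 1.31e-06). Akr1c14, an aldo-keto reductase that acts on steroids in the rat, had 47.3, 92 and 92.1 CPM in 3-4 weeks cells, against 13, 3.7 and 3.38 CPM in 0-3 days cells (log2 change 3.52, SE 0.52, adjusted p = 7.87e-05); it belongs to a family of near-identical genes among which reads may be split. Itgbl1, a secreted protein with integrin-like EGF repeats, had 150.2, 144 and 227 CPM in 3-4 weeks cells, against 28.8, 17.7 and 25.1 CPM in 0-3 days cells (log2 change 2.86, SE 0.32, adjusted p = 3.95e-06). The lack of overlap between the ages in these genes was thus fixed by the choice. Adamtsl3, a matrix glycoprotein related to the ADAMTS proteases, had 233, 248 and 211 CPM in 3-4 weeks cells, against 53.6, 26.4 and 33.8 CPM in 0-3 days cells (log2 change 2.60, SE 0.20, adjusted p = 1.3e-08). Myo7a, an unconventional myosin, had 229.6, 142 and 218 CPM in 3-4 weeks cells, against 45.3, 24.6 and 27.5 CPM in 0-3 days cells (log2 change 2.60, SE 0.23, adjusted p = 2.07e-07). Ackr4, an atypical receptor that takes up chemokines without signalling through G proteins, had 8.7, 8.09 and 15.8 CPM in 3-4 weeks cells, against 3.43, 1.01 and 1.22 CPM in 0-3 days cells (log2 change 2.51, SE 0.42, adjusted p = 0.000259). Without 0-3 days library 1, the log2 changes of Akr1c14 and Ackr4 were 4.44 and 3.28. In Adamtsl3, Myo7a and Ackr4 too, the lack of overlap came with the choice.

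Heart muscle genes fell almost to the last member. Of 25 cardiomyocyte markers tested, 24 were called lower and none higher, against 13.1% of all genes lower. The list's median was -8.12 on the log2 scale (-7.38 with members at the floor placed at their bound). Actc1, the cardiac alpha-actin, had 2 counts in all 3-4 weeks libraries together and 32688 in the 0-3 days libraries, a ratio of 15000 with a 95% counting interval of 4140 to 124000. Myh6, the main adult rodent myosin heavy chain of the heart, had 2 counts against 29206, and Nppa, the atrial natriuretic peptide precursor, 2 against 27541. The 0-3 days libraries did not differ much among themselves: Myh6 stood at 494, 401 and 418 CPM and Nppa at 419, 446 and 376 CPM there. Genes with no count at all at 3-4 weeks were at least 714-fold lower for Ryr2 (the sarcoplasmic calcium release channel), 420-fold for Csrp3 (a Z-disc protein), 142-fold for Myl2 (the ventricular regulatory light chain) and 90.3-fold for Nkx2-5 (a transcription factor of heart muscle cells), with 3 counts over the group as the floor.

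Not all members reached the floor. Tnnt2, cardiac troponin T, had 83.8, 115 and 160.1 CPM in 3-4 weeks cells, against 328, 306 and 289 CPM in 0-3 days cells (log2 change -1.37, SE 0.26, adjusted p = 0.000789). Nppb, the brain natriuretic peptide precursor, had 8.61, 2.05 and 0.714 CPM in 3-4 weeks cells, against 52.5, 61.7 and 54.6 CPM in 0-3 days cells (log2 change -3.87, SE 0.70, adjusted p = 0.000482), with most of what remained in library 1 (log2 change -5.34 without it). Atp2a2, the calcium pump of the sarcoplasmic reticulum, which many cells use, had 504, 509.6 and 529 CPM in 3-4 weeks cells, against 688, 703 and 702 CPM in 0-3 days cells (log2 change -0.44, SE 0.08, adjusted p = 0.000452). Slc8a1, the sodium-calcium exchanger, was the member not called, at 54, 61.6 and 69.5 CPM in 3-4 weeks cells, against 80.4, 72.4 and 72.7 CPM in 0-3 days cells (adjusted p = 0.105). Summed over the list, the level was 655 to 766 CPM in 3-4 weeks cells and 3060 to 3271 CPM in 0-3 days cells, and Myh6, Myh7, Actc1 and Nppa were at or near 0 in every 3-4 weeks library. In bulk RNA, fewer cells of a type and less RNA per cell cannot be told apart. Other genes of striated muscle outside the list, chosen after their values were seen, moved with it. Des, the muscle intermediate filament desmin, had 0.47, 1.7 and 0.969 CPM in 3-4 weeks cells, against 80.8, 90.5 and 73.8 CPM in 0-3 days cells (log2 change -6.29, SE 0.35, adjusted p = 2.25e-10). Pygm, the muscle glycogen phosphorylase, had 0.282, 0 and 0.663 CPM in 3-4 weeks cells, against 18.9, 15.4 and 18.4 CPM in 0-3 days cells (log2 change -5.79, SE 0.39, adjusted p = 1.79e-09; -6.86 without 3-4 weeks library 3). Both were taken from called genes with large falls and ages that did not overlap, so their separation was fixed by the choice.

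**Figure D2:**
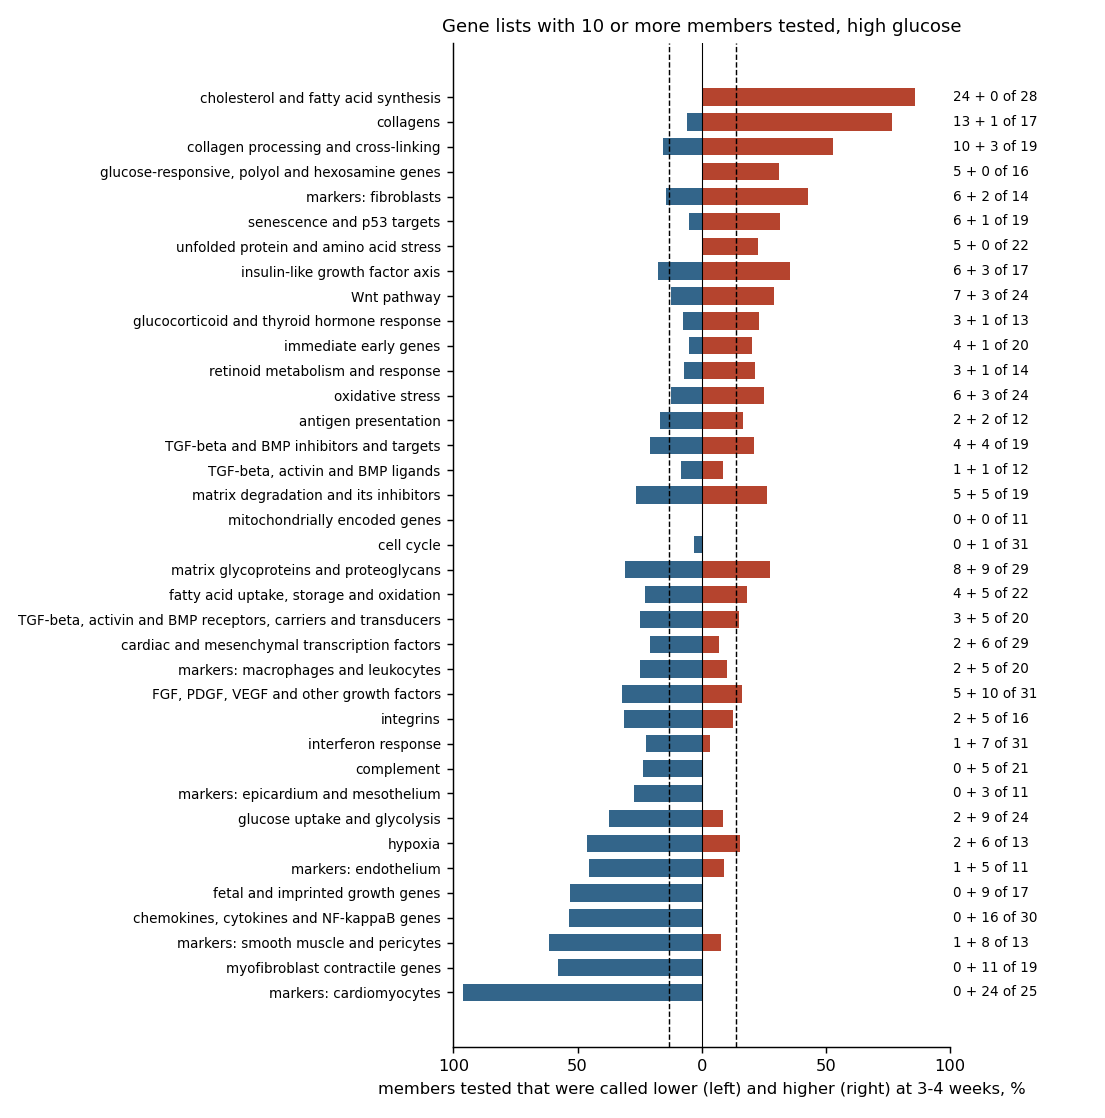
Bars give the percentage of each list's tested members called lower (blue, to the left) and higher (red, to the right) at 3-4 weeks in high glucose, for lists with 10 or more members tested; the text at the right reads members higher + members lower of members tested. Dashed lines mark the share of all genes called in each direction (13.1% lower, 13.9% higher). Cholesterol and fatty acid synthesis (24 higher of 28) and collagens (13 of 17) reach farthest to the right, and cardiomyocyte markers (24 lower of 25) farthest to the left.

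Collagen genes rose together. Of 17 tested, 13 were called higher and 1 lower, against 13.9% and 13.1% of all genes, with a median log2 change of 0.81. Col1a1, the main chain of type I collagen, had 29000, 26970 and 26650 CPM in 3-4 weeks cells, against 19220, 17820 and 19350 CPM in 0-3 days cells (log2 change 0.55, SE 0.09, adjusted p = 0.00015). Col3a1, of the type III collagen that makes the finer fibres of the heart (Rnor_6.0 chromosome 9, 52023295 to 52059217), had 12850, 13770 and 15090 CPM in 3-4 weeks cells, against 6511, 4291 and 5703 CPM in 0-3 days cells (log2 change 1.34, SE 0.13, adjusted p = 4.05e-07). Per length, in the authors' FPKM, Col1a1 stood at 4793 ± 145 FPKM at 3-4 weeks and 3423 ± 157 FPKM at 0-3 days (mean ± SD, n = 3) and Col3a1 at 2961 ± 273 FPKM at 3-4 weeks and 1225 ± 255 FPKM at 0-3 days (mean ± SD, n = 3). On this per-length scale Col1a1 was the more abundant of the 2 at both ages. Col6a3, a chain of the beaded-filament collagen VI, had 1648, 1437 and 1525 CPM in 3-4 weeks cells, against 312, 292 and 518 CPM in 0-3 days cells (log2 change 2.04, SE 0.31, adjusted p = 1e-04). Col8a2, of the short-chain collagen VIII, had 101, 141 and 71.5 CPM in 3-4 weeks cells, against 26.1, 23.3 and 26.8 CPM in 0-3 days cells (log2 change 2.04, SE 0.25, adjusted p = 8.98e-06). Every value at 3-4 weeks was above every value at 0-3 days for each of these 4 genes.

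The basement membrane chains Col4a1 and Col4a2 also rose, by less (log2 changes 0.33 and 0.31, SE 0.06 each, adjusted p = 0.000396 and 0.00131). Col5a2 (0.45), Col6a2 (0.89), Col8a1 (1.19) and Col14a1 (0.98), which regulates fibril diameter, were called too. Col18a1, the source of endostatin, was the member that fell, with 33.5, 52.9 and 73.7 CPM in 3-4 weeks cells, against 143, 134 and 126 CPM in 0-3 days cells (log2 change -1.33, SE 0.26, adjusted p = 0.00111). Col5a1, Col12a1 and Col16a1 were not called, at log2 changes of 0.26, -0.02 and 0.14. Over all alternatives 10 to 13 members were higher and 1 lower.

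Glycoproteins and proteoglycans of the matrix went both ways, 8 of 29 higher and 9 lower, against 13.9% and 13.1% of all genes. Fbn1, the main microfibril protein, had 5186, 3665 and 4551 CPM in 3-4 weeks cells, against 2303, 1894 and 1851 CPM in 0-3 days cells (log2 change 1.15, SE 0.15, adjusted p = 1.36e-05). Its relative Fbn2, which is used mostly before birth, had 4.47, 8.09 and 5.97 CPM in 3-4 weeks cells, against 27.9, 15.4 and 19.7 CPM in 0-3 days cells (log2 change -1.77, SE 0.32, adjusted p = 0.000504). The fibrillin genes therefore moved in opposite directions, with no overlap of the ages in either. Sparc, a collagen-binding matricellular protein, had 9853, 8400 and 8368 CPM in 3-4 weeks cells, against 6605, 5856 and 6086 CPM in 0-3 days cells (log2 change 0.52, SE 0.08, adjusted p = 9.62e-05), and Bgn, the proteoglycan biglycan, rose by 0.48 (SE 0.11, adjusted p = 0.00212).

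Tnc, tenascin C, a matricellular protein of development and wound repair, fell, with 1121, 1050 and 756 CPM in 3-4 weeks cells, against 2790, 4750 and 4214 CPM in 0-3 days cells (log2 change -2.01, SE 0.31, adjusted p = 0.000115). Thbs1, thrombospondin 1, had 3147, 2369 and 2767 CPM in 3-4 weeks cells, against 3893, 6871 and 7195 CPM in 0-3 days cells (log2 change -1.12, SE 0.23, adjusted p = 0.00155). Both were lowest among the 0-3 days cells in library 1 and still above every 3-4 weeks library there. Fmod, the collagen-binding proteoglycan fibromodulin, had 14, 10.6 and 30.2 CPM in 3-4 weeks cells, against 73.9, 54.9 and 53.7 CPM in 0-3 days cells (log2 change -1.74, SE 0.44, adjusted p = 0.00678). Acan, aggrecan, fell by 3.36 (SE 0.70, adjusted p = 0.00168; log2 change -2.76 without 3-4 weeks library 1). Fn1, fibronectin, and Postn, periostin, were not called, with Fn1 at 16730, 12750 and 16320 CPM in 3-4 weeks cells, against 20430, 19710 and 16580 CPM in 0-3 days cells (adjusted p = 0.0577) and Postn at 4801, 2820 and 4267 CPM in 3-4 weeks cells, against 2759, 2611 and 2882 CPM in 0-3 days cells (adjusted p = 0.0653); their ages overlapped. Fn1 was called lower without 3-4 weeks library 1 (adjusted p = 0.048) or 0-3 days library 3 (0.0354), and Postn higher without 3-4 weeks library 2 (log2 change 0.72, adjusted p = 0.0127). DESeq2's Wald test called Fn1 lower (adjusted p = 0.0313) and Postn higher (adjusted p = 0.0484), and edgeR with DESeq2's size factors called Fn1 lower too (adjusted p = 0.0482). The list held 5 higher members without 3-4 weeks library 1.

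**Figure D3:**
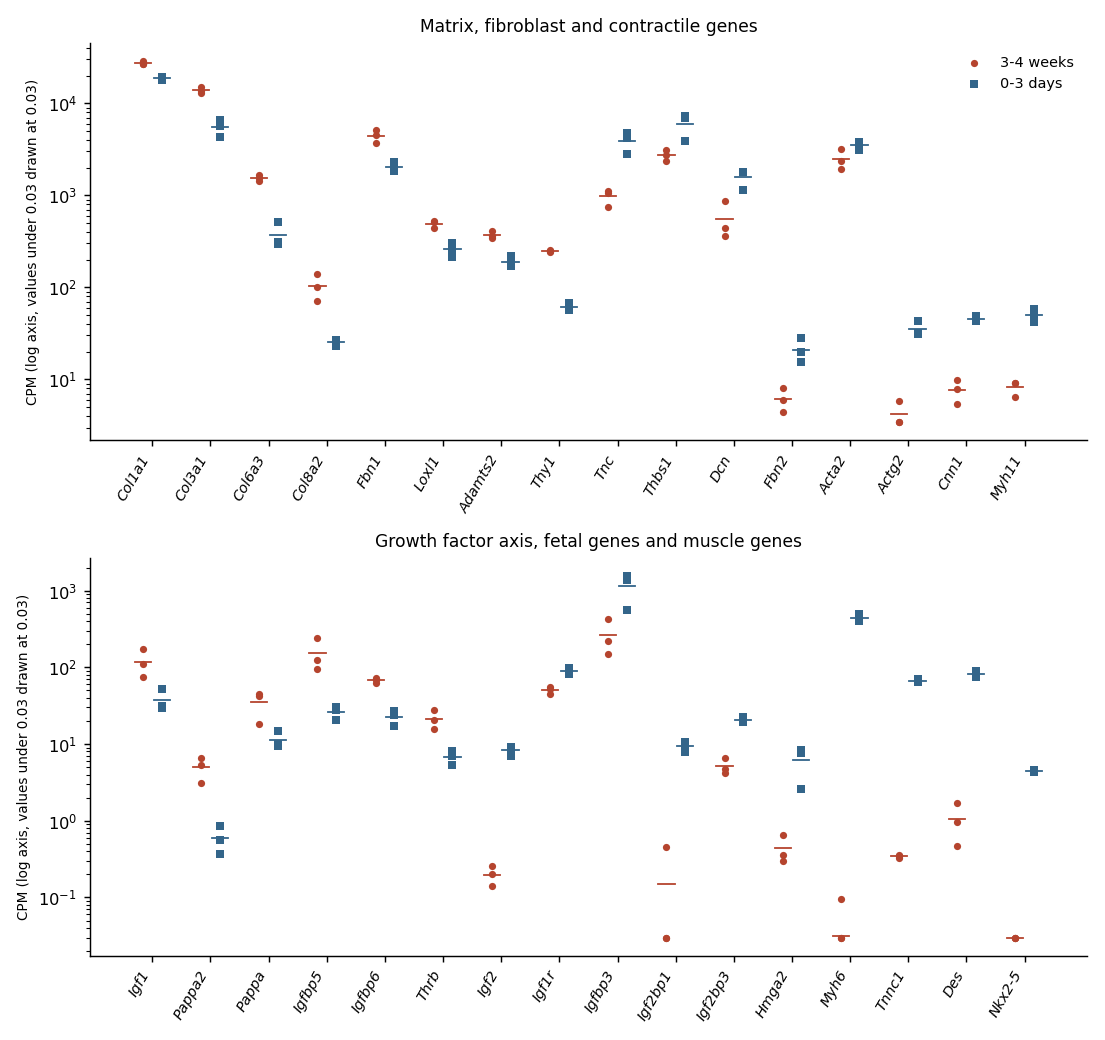
Points are the CPM values of single libraries on a log axis, with 3-4 weeks cells as red circles left of 0-3 days cells as blue squares, and bars are the mean of 3 libraries; values under 0.03 are drawn at 0.03. The upper panel shows matrix, fibroblast and contractile genes, with the circles above the squares from Col1a1 to Thy1 and below them for Tnc and Thbs1. The lower panel shows growth factor, fetal and muscle genes, with Igf1, Pappa2 and Thrb higher and Igf2, Igf2bp1 and Myh6 lower at 3-4 weeks.

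Enzymes that process and cross-link collagen rose more often than they fell, 10 of 19 against 3, where 13.9% of all genes were higher and 13.1% lower. The lysyl oxidases Loxl1, Loxl2 and Loxl3, which cross-link collagen and elastin, rose by 0.93, 0.84 and 0.86 (SE 0.11, 0.16 and 0.15). Loxl1 had 530, 441 and 511 CPM in 3-4 weeks cells, against 302, 215 and 259.6 CPM in 0-3 days cells (adjusted p = 5.6e-06). Adamts2, which removes the N-propeptide of fibrillar procollagens, had 361, 345 and 406 CPM in 3-4 weeks cells, against 220.2, 171 and 177 CPM in 0-3 days cells (log2 change 0.97, SE 0.11, adjusted p = 2.31e-06), while Adamts14, of the same group, had 13.1, 15.9 and 13.5 CPM in 3-4 weeks cells, against 26.8, 34.6 and 25.5 CPM in 0-3 days cells (log2 change -1.03, SE 0.13, adjusted p = 1.45e-05). Plod1, a lysyl hydroxylase, rose by 0.58 (SE 0.09, adjusted p = 0.00012), and P4ha1, a subunit of prolyl hydroxylase, by 0.42 (SE 0.10, adjusted p = 0.00355). P4ha3, another such subunit, fell by 0.56 (SE 0.13, adjusted p = 0.00397). Lox itself was not called, at 435, 835 and 850.1 CPM in 3-4 weeks cells, against 869.9, 963 and 737 CPM in 0-3 days cells (adjusted p = 0.622).

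Of 19 genes of matrix degradation and its inhibitors, 5 were higher and 5 lower, where 27.0% of all genes were called. Mmp14, the membrane-bound collagenase, had 1702, 1571 and 1818 CPM in 3-4 weeks cells, against 1271, 1147 and 1014 CPM in 0-3 days cells (log2 change 0.57, SE 0.12, adjusted p = 0.00172), and Timp2, an inhibitor of such proteases, had 809, 744 and 867 CPM in 3-4 weeks cells, against 612, 544 and 464 CPM in 0-3 days cells (log2 change 0.58, SE 0.11, adjusted p = 0.000782). Timp3, an inhibitor that binds the matrix, fell by 0.99 (SE 0.23, adjusted p = 0.0039). The counts of this list were 3 higher without 3-4 weeks library 3, 3 and 2 without 0-3 days library 2, and 3 and 3 without 0-3 days library 3. Among 16 integrins, 2 were higher and 5 lower; the laminin receptor chain Itga7 had 7.34, 12.8 and 11.7 CPM in 3-4 weeks cells, against 58.8, 57.8 and 52.1 CPM in 0-3 days cells (log2 change -2.41, SE 0.23, adjusted p = 3.21e-07), and Itga3 and Itga6 fell by 1.49 (SE 0.33) and 1.52 (SE 0.37). The integrin count of higher members was 1, 0 and 1 without 3-4 weeks library 3, 0-3 days library 2 and 0-3 days library 3.

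Contractile genes of myofibroblasts and smooth muscle fell or were not called. None of 19 was higher and 11 were lower, against 13.1% of all genes lower, with a median log2 change of -0.48. The 11 include Des, given above beside the heart muscle genes, which fell more than the genes named here. Among the others, Actg2, Cnn1 and Myh11 are also expressed by smooth muscle. Actg2, an enteric-type smooth muscle actin, had 3.43, 5.89 and 3.42 CPM in 3-4 weeks cells, against 32.3, 31.4 and 43.4 CPM in 0-3 days cells (log2 change -3.07, SE 0.34, adjusted p = 2.66e-06). Cnn1, calponin, had 7.81, 9.89 and 5.41 CPM in 3-4 weeks cells, against 43.2, 48.5 and 45.8 CPM in 0-3 days cells (log2 change -2.57, SE 0.39, adjusted p = 0.00011). Myh11, the smooth muscle myosin heavy chain, had 6.49, 9.24 and 9.08 CPM in 3-4 weeks cells, against 58.2, 51.9 and 41.9 CPM in 0-3 days cells (log2 change -2.62, SE 0.24, adjusted p = 2.2e-07). The ages did not overlap for any of the 3. Tpm1, a tropomyosin, fell by 0.59 (SE 0.14, adjusted p = 0.00407).

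Acta2, the smooth muscle alpha-actin that defines myofibroblasts, had 2386, 3180 and 1947 CPM in 3-4 weeks cells, against 3602, 3074 and 3824 CPM in 0-3 days cells (log2 change -0.48, SE 0.15, adjusted p = 0.0186), and 3-4 weeks library 2 lay inside the 0-3 days range. Its call was lost without 3-4 weeks library 1 (adjusted p = 0.0638) or 3 (0.114) and without 0-3 days library 3 (0.0822). Tagln, transgelin, stood at 3513, 3156 and 2214 CPM in 3-4 weeks cells, against 2962, 2809 and 3758 CPM in 0-3 days cells (adjusted p = 0.692). The list held 7 lower members without 3-4 weeks library 3. Of 13 smooth muscle and pericyte markers, 8 were lower and 1 higher (5 lower without 3-4 weeks library 1), where 13.1% of all genes were lower. These markers share members with the contractile list, Acta2, Cnn1, Myh11, Tagln and Des among them, so their count is not a separate result. The marker sums were 6844 to 8636 CPM in 3-4 weeks cells and 7765 to 9562 CPM in 0-3 days cells. The part of smooth muscle cells and pericytes in the result was not tested.

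TGF-beta, activin and BMP signalling, which controls collagen synthesis and myofibroblast formation, had members called in both directions, where 27.0% of all genes were called. Of 12 ligands, 1 was higher (Tgfb1) and 1 lower (Bmp7). Bmp7 had no count in the 3-4 weeks libraries and 45 in the 0-3 days libraries, at least 13.7-fold lower with 3 counts over the group as the floor. Tgfb1 had 256, 190.3 and 175 CPM in 3-4 weeks cells, against 134, 175 and 161 CPM in 0-3 days cells (log2 change 0.40, SE 0.14, adjusted p = 0.0354) with overlap of the ages, and it was not called without 3-4 weeks library 1 (adjusted p = 0.257) or 0-3 days library 1 (0.144) or 3 (0.0693). Tgfb2 and Tgfb3 stood at log2 changes of -0.11 and 0.18 (adjusted p = 0.787 and 0.64). Of 20 receptors, latent carriers and SMADs, 3 were higher and 5 lower. Acvr1b, an activin receptor, fell by 1.08 (SE 0.23, adjusted p = 0.00212), Eng, the co-receptor endoglin, rose by 0.65 (SE 0.14, adjusted p = 0.00198), and the latent binding proteins split, Ltbp3 higher by 0.69 (SE 0.14) and Ltbp1 lower, at -0.52 (SE 0.12). Without 3-4 weeks library 1 or 0-3 days library 1, 3 of these 20 were lower.

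Of 19 inhibitors and targets of the pathway, 4 were higher and 4 lower, where 27.0% of all genes were called. Chrd, the BMP antagonist chordin, had 17.9, 15.9 and 15.3 CPM in 3-4 weeks cells, against 8.23, 6.31 and 6.85 CPM in 0-3 days cells (log2 change 1.20, SE 0.14, adjusted p = 4.66e-06). Its ages did not overlap. Pmepa1, a TGF-beta target that dampens the pathway, rose by 0.85 (SE 0.17, adjusted p = 0.000782), while Ctgf, a well-known TGF-beta target, was not called, at 0.02 (adjusted p = 0.923). The counts of this list were 2 higher without 3-4 weeks library 1, 2 lower without 3-4 weeks library 2 and 1 lower without 0-3 days library 2.

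In the Wnt pathway, which acts in development and repair, 7 of 24 members were higher and 3 lower. Of all genes, 27.0% were called. Wnt5a, a ligand of the branch that does not use beta-catenin, had 6.21, 7.04 and 5.87 CPM in 3-4 weeks cells, against 12.2, 14.6 and 17.3 CPM in 0-3 days cells (log2 change -1.20, SE 0.18, adjusted p = 6.49e-05), and its receptor Ror2 had 21.4, 17.7 and 19.3 CPM in 3-4 weeks cells, against 29.7, 32.4 and 31.3 CPM in 0-3 days cells (log2 change -0.68, SE 0.13, adjusted p = 0.00058). Both were lower in every 3-4 weeks library than in any 0-3 days library. Fzd2, a receptor, had 129.5, 128 and 134 CPM in 3-4 weeks cells, against 109, 63.9 and 73.5 CPM in 0-3 days cells (log2 change 0.67, SE 0.14, adjusted p = 0.00175), and Dkk3, a secreted member of the dickkopf family, had 415, 264 and 406 CPM in 3-4 weeks cells, against 244, 185 and 192 CPM in 0-3 days cells (log2 change 0.80, SE 0.18, adjusted p = 0.0022). Axin2 and Lef1, targets of the beta-catenin branch, were not called, at 0.59 and -0.37 (adjusted p = 0.446 and 0.606). The count of higher members was 4 without 0-3 days library 3.

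In the insulin-like growth factor axis, 6 of 17 members were higher and 3 lower, where 27.0% of all genes were called. The ligands went opposite ways. Igf1, the growth factor that drives growth after birth (Rnor_6.0 chromosome 7, 28412198 to 28486609), had 109.9, 74.9 and 171 CPM in 3-4 weeks cells, against 52.2, 31 and 29.8 CPM in 0-3 days cells (log2 change 1.65, SE 0.27, adjusted p = 0.000233). Igf2, the fetal ligand (chromosome 1, 215828102 to 215846911), had 0.141, 0.2 and 0.255 CPM in 3-4 weeks cells, against 8.92, 7.04 and 9.25 CPM in 0-3 days cells (log2 change -5.37, SE 0.67, adjusted p = 9.08e-06). Neither gene's ages overlapped. Igf1r, the receptor for both, had 44.9, 55.6 and 51.4 CPM in 3-4 weeks cells, against 82.2, 98 and 91 CPM in 0-3 days cells (log2 change -0.84, SE 0.19, adjusted p = 0.00341).

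The proteases that free these ligands from their binding proteins rose. Pappa had 45.1, 18.1 and 42.3 CPM in 3-4 weeks cells, against 9.95, 14.8 and 9.39 CPM in 0-3 days cells (log2 change 1.63, SE 0.32, adjusted p = 0.00103), and Pappa2 had 3.1, 6.59 and 5.25 CPM in 3-4 weeks cells, against 0.557, 0.366 and 0.845 CPM in 0-3 days cells (log2 change 3.07, SE 0.29, adjusted p = 2.89e-07). Binding proteins differed among themselves. Igfbp5 had 239, 94.7 and 125 CPM in 3-4 weeks cells, against 30.5, 20.5 and 27.9 CPM in 0-3 days cells (log2 change 2.54, SE 0.60, adjusted p = 0.00417), Igfbp6 rose by 1.60 (SE 0.20, adjusted p = 1.35e-05), and Igfbp3 had 150.1, 219.7 and 423 CPM in 3-4 weeks cells, against 1551, 1381 and 560.2 CPM in 0-3 days cells (log2 change -2.14, SE 0.55, adjusted p = 0.00723). In Igfbp5 the highest 3-4 weeks value was in library 1, and in Igfbp3 the ages came closest between 3-4 weeks library 3 and 0-3 days library 3.

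Genes of fetal and imprinted growth fell or were not called, 9 of 17 lower and none higher, against 13.1% of all genes lower, with a median log2 change of -1.17. The Igf2 mRNA-binding proteins all fell. Igf2bp1 had 0, 0.45 and 0 CPM in 3-4 weeks cells, against 7.93, 10.5 and 9.67 CPM in 0-3 days cells (log2 change -5.92, SE 0.66, adjusted p = 2.14e-05), Igf2bp3 had 6.59, 4.25 and 4.69 CPM in 3-4 weeks cells, against 22.2, 19.2 and 20.2 CPM in 0-3 days cells (log2 change -1.99, SE 0.19, adjusted p = 3.54e-07), and Igf2bp2 fell by 1.24 (SE 0.21, adjusted p = 0.000211). Hmga2, an architectural chromatin protein of dividing embryonic cells, had 0.659, 0.3 and 0.357 CPM in 3-4 weeks cells, against 2.57, 8.41 and 7.7 CPM in 0-3 days cells (log2 change -3.80, SE 0.53, adjusted p = 2.91e-05). Slc38a4, an imprinted amino acid transporter, fell by 1.25 (SE 0.21, adjusted p = 0.000178), and Plagl1 and Cdkn1c, an imprinted transcription factor and an imprinted cell cycle inhibitor, fell by 1.17 (SE 0.30) and 1.96 (SE 0.46). No 3-4 weeks library reached the 0-3 days range for any of these genes. All counts of Igf2bp1 at 3-4 weeks were in library 2, its change was -5.33 without library 1, and Cdkn1c changed by -2.66 without 3-4 weeks library 3. Dlk1, Mest, Peg3, Grb10, Gpc3 and Impact were not called, with log2 changes between -0.51 and 0.76.

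Other growth factors and their receptors held 5 higher and 10 lower of 31, where 27.0% of all genes were called. Fgfr1, an FGF receptor, had 221, 192 and 247 CPM in 3-4 weeks cells, against 129, 116 and 121 CPM in 0-3 days cells (log2 change 0.85, SE 0.09, adjusted p = 7.54e-07). Kitlg, stem cell factor, had 36.2, 43 and 36.4 CPM in 3-4 weeks cells, against 19.3, 14.9 and 23.6 CPM in 0-3 days cells (log2 change 1.0, SE 0.17, adjusted p = 0.000287). Mdk, the heparin-binding factor midkine of embryonic tissue, had 3.39, 2 and 1.99 CPM in 3-4 weeks cells, against 9.86, 11.3 and 6.67 CPM in 0-3 days cells (log2 change -1.91, SE 0.30, adjusted p = 9.51e-05), and Pdgfb fell by 1.60 (SE 0.34, adjusted p = 0.00163). All 4 were free of overlap. Pdgfra and Pdgfrb, the receptors of fibroblasts and mural cells, differed, Pdgfra at 0.25 (adjusted p = 0.575) and Pdgfrb higher by 0.70 (SE 0.14, adjusted p = 0.001). The count of lower members was 6 without 3-4 weeks library 1 or 2 and 5 without 0-3 days library 1 or 2, and that of higher members was 3 without 0-3 days library 2.

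Cardiac and mesenchymal transcription factors were called about as often as all genes (27.0%): 2 of 29 were higher and 6 lower, and without 3-4 weeks library 2, 4 were higher. Gata4, Gata6, Tbx20, Tcf21 and Prrx1 had log2 changes of -0.09, 0.19, -0.23, 0.06 and -0.02 and none was called. Snai1, a regulator of the mesenchymal state, had 62.1, 70.9 and 72.8 CPM in 3-4 weeks cells, against 44.1, 45.9 and 40 CPM in 0-3 days cells (log2 change 0.66, SE 0.15, adjusted p = 0.00258). Gata5, a zinc-finger transcription factor of the developing heart, had 1 count in the 3-4 weeks libraries together and 149 in the 0-3 days libraries, a ratio of 136 with a counting interval of 24.1 to 5420. The thyroid hormone receptor gene Thrb had 15.7, 20.3 and 28.1 CPM in 3-4 weeks cells, against 8.23, 7.04 and 5.3 CPM in 0-3 days cells (log2 change 1.64, SE 0.20, adjusted p = 6.85e-06), with every 3-4 weeks value above every 0-3 days value, while Thra had a log2 change of 0.06 (adjusted p = 0.858).

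Most genes that make cholesterol and fatty acids rose. Of 28 genes tested, 24 were called higher and none lower, against 13.9% of all genes higher, with a median log2 change of 0.64. Insig1, the sterol sensor that holds SREBP precursors in the endoplasmic reticulum, had 409, 282 and 482 CPM in 3-4 weeks cells, against 206, 137 and 124 CPM in 0-3 days cells (log2 change 1.33, SE 0.24, adjusted p = 0.000541). Scd1, the desaturase that makes monounsaturated fatty acids, had 261, 172 and 235 CPM in 3-4 weeks cells, against 85.9, 58.4 and 61.1 CPM in 0-3 days cells (log2 change 1.70, SE 0.27, adjusted p = 0.000137). Lss, lanosterol synthase, had 111, 60 and 97.4 CPM in 3-4 weeks cells, against 44.4, 35.1 and 31.7 CPM in 0-3 days cells (log2 change 1.27, SE 0.22, adjusted p = 0.000282). The lowest 3-4 weeks library, number 2 in each of these genes, was still above the highest 0-3 days library. Hmgcs1, the synthase that feeds the mevalonate pathway, had 469, 329 and 459 CPM in 3-4 weeks cells, against 310.4, 225 and 221 CPM in 0-3 days cells (log2 change 0.73, SE 0.19, adjusted p = 0.00878).

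The transcription factors of the pathway rose with their targets, Srebf1 with 122, 89.7 and 129 CPM in 3-4 weeks cells, against 65.6, 56 and 50.6 CPM in 0-3 days cells (log2 change 0.98, SE 0.17, adjusted p = 0.000219) and Srebf2 by 0.46 (SE 0.10, adjusted p = 0.00142). So did Sqle (0.76, SE 0.18), Cyp51 (0.78, SE 0.17), Mvd (0.99, SE 0.21), Dhcr7 (0.82, SE 0.20), Nsdhl (0.81, SE 0.18) and Sc5d (0.67, SE 0.15), enzymes from mevalonate to cholesterol. Idi1, an isomerase of the pathway, was not called, at 0.30 (adjusted p = 0.264). Without 0-3 days library 3, 14 members were higher, the lowest count over the alternatives. The list's summed level was 5460 to 7783 CPM in 3-4 weeks cells and 4050 to 4950 CPM in 0-3 days cells, highest in 3-4 weeks library 1, and was still 5460 and 7163 CPM in libraries 2 and 3.

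Promoters of these genes, from 250 bases before to 50 bases after the transcription start, were searched for 16 short motifs on both strands. RefSeq held promoters (GRCr8) for 18 of the 28 members, 17 of them called higher. CCAAT, the box bound by NF-Y, was present in 15 of the 18 (83.3%) and in 37.5% of all 33469 RefSeq promoters. The GC box GGGCGG was present in 16 (88.9%) and in 33.1% of all. The share of all promoters was not restricted to the genes tested. High shares were not particular to this list: CCAAT was in 81.8% of matched antigen presentation genes. The GC box was in 100% of TGF-beta and BMP inhibitors and targets and in 87.5% of contractile genes. Other lists held lower shares, such as 50% (CCAAT) and 18.2% (GC box) in cardiomyocyte markers. The sterol element TCACNCCAC was in none of the 18 and in 1.12% of all promoters. With so low a share, its absence from 18 promoters does not set this list apart from other genes. The promoters of 3 members are printed to show the CCAAT box, chosen after the counts and values were seen; capitals mark it, and it reads ATTGG where it lies on the other strand. A match describes these letters and is not a binding site. Insig1 lies at chr4:8057720-8058019 (minus strand, box 193 bases before the start), Lss at chr20:12118181-12118480 (minus strand, 82 before) and Hmgcs1 at chr2:53382054-53382353 (plus strand, 188 and 133 before), all in GRCr8.
Insig1: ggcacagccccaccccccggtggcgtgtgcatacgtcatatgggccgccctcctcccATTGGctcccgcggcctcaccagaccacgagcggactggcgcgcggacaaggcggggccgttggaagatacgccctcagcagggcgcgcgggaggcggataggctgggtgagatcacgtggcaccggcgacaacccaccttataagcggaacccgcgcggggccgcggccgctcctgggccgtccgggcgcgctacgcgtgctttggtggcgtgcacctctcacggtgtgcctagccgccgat
Lss: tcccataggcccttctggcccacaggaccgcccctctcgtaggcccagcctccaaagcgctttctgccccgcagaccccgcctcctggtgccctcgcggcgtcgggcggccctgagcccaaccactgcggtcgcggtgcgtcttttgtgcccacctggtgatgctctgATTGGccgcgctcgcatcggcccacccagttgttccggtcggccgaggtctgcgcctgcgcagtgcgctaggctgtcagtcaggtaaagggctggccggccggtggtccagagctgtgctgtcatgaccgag
Hmgcs1: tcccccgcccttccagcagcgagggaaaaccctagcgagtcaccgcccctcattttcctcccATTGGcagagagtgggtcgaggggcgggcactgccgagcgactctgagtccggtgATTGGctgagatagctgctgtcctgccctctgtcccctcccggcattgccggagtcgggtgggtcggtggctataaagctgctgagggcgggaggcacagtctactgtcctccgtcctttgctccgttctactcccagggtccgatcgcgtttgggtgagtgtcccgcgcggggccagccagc

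Other metabolic genes moved in smaller numbers. Of 22 genes of fatty acid uptake, storage and oxidation, 4 were higher and 5 lower, where 27.0% of all genes were called. Hadha and Hadhb, the subunits of the mitochondrial trifunctional protein, rose by 0.34 (SE 0.06) and 0.61 (SE 0.09), and Hadhb had 218, 227 and 206 CPM in 3-4 weeks cells, against 137, 137 and 152 CPM in 0-3 days cells (adjusted p = 3.41e-05). Cd36, the fatty acid transporter, had 5.6, 6.59 and 6.94 CPM in 3-4 weeks cells, against 25, 28.2 and 22.4 CPM in 0-3 days cells (log2 change -1.98, SE 0.29, adjusted p = 4.51e-05), and Fabp3 and Cpt1b, the heart muscle forms of a fatty acid binding protein and of carnitine palmitoyltransferase, fell by 1.17 (SE 0.23) and 0.96 (SE 0.17). Heart muscle uses those 3 genes strongly, and the cardiomyocyte markers fell in the same libraries; their part in these values was not tested.

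In glucose uptake and glycolysis, 2 of 24 were higher and 9 lower, where 27.0% of all genes were called. Slc2a1, the widely used glucose transporter, had 77.2, 55.6 and 81 CPM in 3-4 weeks cells, against 89.2, 132 and 112 CPM in 0-3 days cells (log2 change -0.64, SE 0.15, adjusted p = 0.00329), and Slc16a3, a lactate exporter, had 4.61, 2.5 and 7.19 CPM in 3-4 weeks cells, against 21.4, 38.7 and 18.5 CPM in 0-3 days cells (log2 change -2.46, SE 0.40, adjusted p = 0.000202). Both were lower at 3-4 weeks without overlap. Pfkp, a phosphofructokinase, had 222, 209 and 224 CPM in 3-4 weeks cells, against 142, 136 and 145 CPM in 0-3 days cells (log2 change 0.63, SE 0.07, adjusted p = 8.14e-07). Ldhb fell by 0.76 (SE 0.12, adjusted p = 8.1e-05). The count of lower members was 4 without 0-3 days library 2. Of 16 genes that respond to glucose or use it in the polyol and hexosamine pathways, 5 were higher and none lower (3 without 0-3 days library 2). Gfpt2, which starts the hexosamine pathway, had 307, 174 and 283 CPM in 3-4 weeks cells, against 102, 166 and 101 CPM in 0-3 days cells (log2 change 1.05, SE 0.21, adjusted p = 0.00116), and Gnpda1, which runs the reverse step, rose by 0.85 (SE 0.12, adjusted p = 4.09e-05). Txnip, a strongly glucose-induced gene, was not called, with 150.3, 220.4 and 167 CPM in 3-4 weeks cells, against 188, 144 and 168 CPM in 0-3 days cells (adjusted p = 0.665).

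Many chemokine and NF-kappaB genes fell. Of 30 tested, 16 were lower and none higher, against 13.1% of all genes lower, with a median log2 change of -1.27. Cxcl12, a chemokine that fibroblasts make constitutively, had 116, 208 and 323 CPM in 3-4 weeks cells, against 461, 753 and 662 CPM in 0-3 days cells (log2 change -1.53, SE 0.37, adjusted p = 0.00543). Il1rn, the interleukin 1 receptor antagonist, had 11.5, 8.74 and 11.6 CPM in 3-4 weeks cells, against 31.1, 44.5 and 25.6 CPM in 0-3 days cells (log2 change -1.67, SE 0.30, adjusted p = 0.000412). Icam1, an adhesion molecule induced by NF-kappaB, had 350, 244 and 250.2 CPM in 3-4 weeks cells, against 350.2, 581 and 521 CPM in 0-3 days cells (log2 change -0.78, SE 0.18, adjusted p = 0.00261). The ages came closest in Icam1, in which 3-4 weeks library 1 and 0-3 days library 1 were level. Cxcl3 and Cxcl6, neutrophil chemokines, had 1.03, 0.3 and 1.33 CPM and 0.047, 0 and 0.153 CPM in 3-4 weeks cells, against 6.82, 20.6 and 7.09 CPM and 0.986, 13.3 and 2.11 CPM in 0-3 days cells, and fell by 3.69 (SE 0.60, adjusted p = 0.000173) and 6.25 (SE 1.22, adjusted p = 0.00122). Without 0-3 days library 2 these changes were -2.96 and -4.43, and without 3-4 weeks library 3 that of Cxcl6 was -7.49.

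For the best-known members the spread within an age was wide. Cxcl1, a neutrophil chemokine, had 9.41, 1.2 and 2.96 CPM in 3-4 weeks cells, against 7.8, 236 and 84.5 CPM in 0-3 days cells (log2 change -4.59, SE 1.02, adjusted p = 0.00281). Ccl2, the main monocyte chemokine, had 401, 74.7 and 123 CPM in 3-4 weeks cells, against 313, 1550 and 1130 CPM in 0-3 days cells (log2 change -2.32, SE 0.65, adjusted p = 0.0131). In both, 0-3 days library 1 was the lowest of its group and 3-4 weeks library 1 the highest of its own, and the ages overlapped. Il6 had 2.21, 1.35 and 2.19 CPM in 3-4 weeks cells, against 3.04, 14.7 and 2.72 CPM in 0-3 days cells (log2 change -1.83, SE 0.57, adjusted p = 0.0239), with most of the 0-3 days level in library 2, and it was not called without that library (log2 change -0.59, adjusted p = 0.401) or without any 3-4 weeks library (adjusted p 0.0546 to 0.0711). Ccl2 was not called without 0-3 days library 2 (adjusted p = 0.0703) or 3-4 weeks library 3 (0.0638), and changed by -3.34 without 3-4 weeks library 1. Cxcl1 changed by -5.72 without 3-4 weeks library 1 and by -3.34 without 0-3 days library 2. In all, 9 members were lower without 0-3 days library 2. Summed over the list the level was 1083 to 1705 CPM in 3-4 weeks cells, against 1762, 4562 and 3490 CPM in 0-3 days cells.

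RefSeq promoters were matched for 25 of the 33 chemokine, cytokine and NF-kappaB genes. The NF-kappaB motif was searched on both strands with any bases allowed at its middle positions. It was present in 9 of the 25 (36%) and in 1.53% of all promoters, and in 7 of the 13 matched members that were called lower. The list was drawn up to hold NF-kappaB genes, so a share above that of all promoters follows from the choice of members. TATAAA was present in 11 of the 25 (44%) and in 14.2% of all. Promoters of 3 of the lower genes are shown with the NF-kappaB letters in capitals, again chosen after their values were seen. Cxcl1 (chr14:17479272-17479571, minus strand) holds 2 matches, 102 and 84 bases before the start, the first on the other strand. Cxcl6 (chr14:17596368-17596667, minus strand) and Il6 (chr4:5894526-5894825, minus strand) hold 1 each, 88 and 68 bases before it.
Cxcl1: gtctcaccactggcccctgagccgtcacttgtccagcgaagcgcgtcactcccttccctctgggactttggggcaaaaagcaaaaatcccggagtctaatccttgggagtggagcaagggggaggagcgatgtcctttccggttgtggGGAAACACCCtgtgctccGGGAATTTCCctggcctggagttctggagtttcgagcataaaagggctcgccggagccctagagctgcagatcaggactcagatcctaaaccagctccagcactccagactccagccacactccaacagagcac
Cxcl6: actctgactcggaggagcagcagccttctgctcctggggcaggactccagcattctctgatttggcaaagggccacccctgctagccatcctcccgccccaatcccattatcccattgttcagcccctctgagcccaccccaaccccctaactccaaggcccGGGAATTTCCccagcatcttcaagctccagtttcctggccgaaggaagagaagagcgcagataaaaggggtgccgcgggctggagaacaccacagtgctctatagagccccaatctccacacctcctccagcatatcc
Il6: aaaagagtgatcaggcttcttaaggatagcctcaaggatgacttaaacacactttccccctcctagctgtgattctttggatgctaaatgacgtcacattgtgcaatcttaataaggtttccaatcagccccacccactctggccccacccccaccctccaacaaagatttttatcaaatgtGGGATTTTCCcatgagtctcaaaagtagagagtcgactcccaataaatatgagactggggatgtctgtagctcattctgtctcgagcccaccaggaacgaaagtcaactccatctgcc

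Macrophage and leukocyte markers were not called for the most part: 5 of 20 were lower and 2 higher. Of all genes, 27.0% were called. Ptprc, the common leukocyte antigen, had 22.6, 11.5 and 10.6 CPM in 3-4 weeks cells, against 25.7, 25.5 and 21.9 CPM in 0-3 days cells (adjusted p = 0.121), and Cd68 had 38.5, 18.7 and 17 CPM in 3-4 weeks cells, against 57.9, 59.1 and 47.8 CPM in 0-3 days cells (log2 change -1.15, SE 0.29, adjusted p = 0.00746). Cd74, the invariant chain of class II antigen presentation, was higher, with 12.2, 12.4 and 13.8 CPM in 3-4 weeks cells, against 3.52, 4.84 and 2.35 CPM in 0-3 days cells (log2 change 1.84, SE 0.40, adjusted p = 0.00216). The level of 15 of the 20 was higher in 3-4 weeks library 1 than in libraries 2 and 3, and without library 1 the list held 11 lower, Ptprc among them (log2 change -1.14, adjusted p = 0.0254), and 1 higher. Their part in the fall of the chemokines was not tested.

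**Figure D4:**
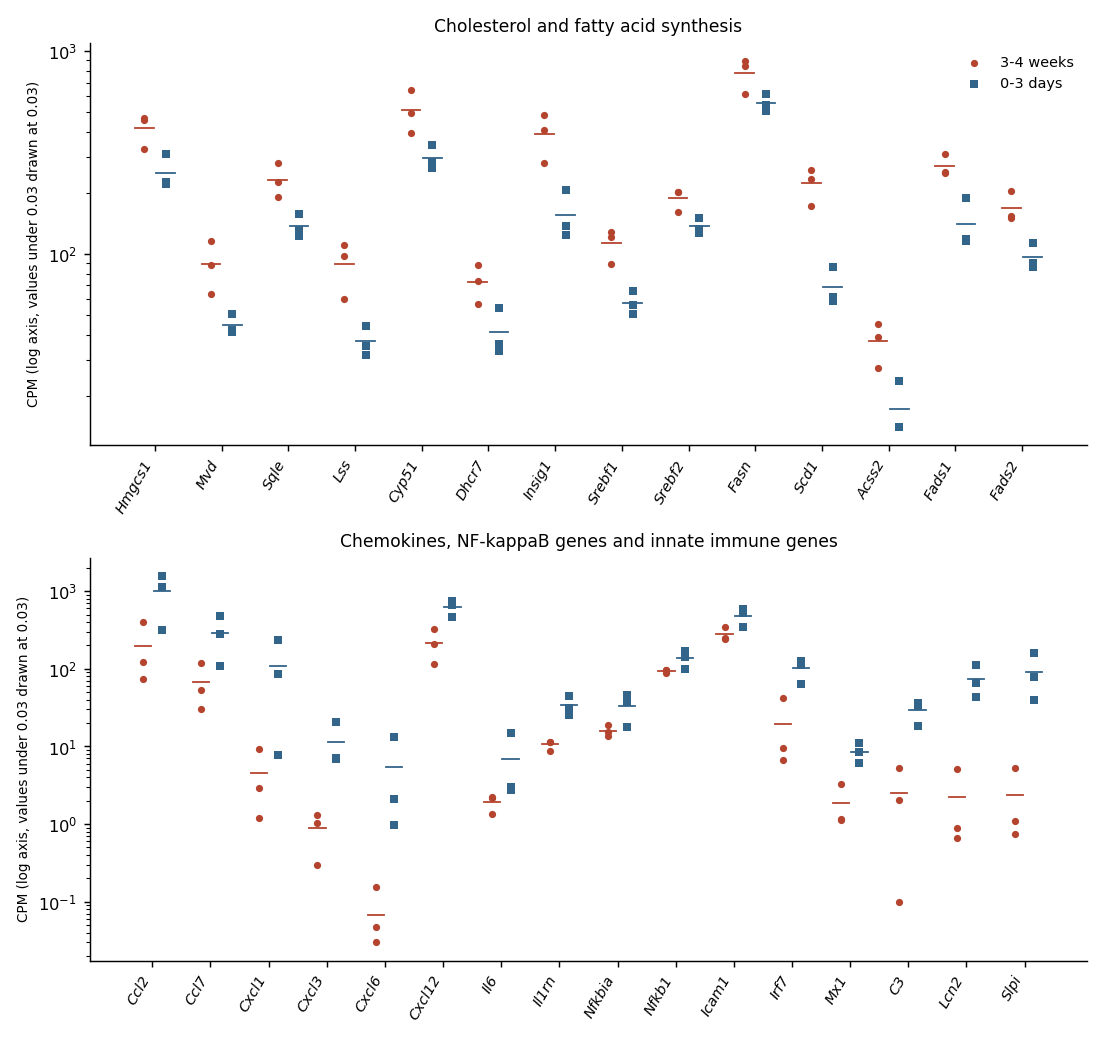
Points are the CPM values of single libraries on a log axis, with 3-4 weeks cells as red circles left of 0-3 days cells as blue squares, and bars are the mean of 3 libraries; values under 0.03 are drawn at 0.03. In the upper panel every cholesterol and fatty acid synthesis gene shown has its mean higher at 3-4 weeks. In the lower panel every mean is lower at 3-4 weeks, with wide spread among the 0-3 days libraries for Cxcl1, Ccl2 and Il6.

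Interferon response and complement genes were called about as often as all genes (27.0%), and those called were mostly lower. Of 31 interferon response genes, 7 were lower and 1 higher. Irf7, a transcription factor of that response, had 6.73, 9.64 and 41.5 CPM in 3-4 weeks cells, against 127, 113 and 63.7 CPM in 0-3 days cells (log2 change -2.40, SE 0.63, adjusted p = 0.00857), and Mx1, an antiviral GTPase, had 1.13, 1.15 and 3.27 CPM in 3-4 weeks cells, against 8.49, 11 and 6.15 CPM in 0-3 days cells (log2 change -2.21, SE 0.50, adjusted p = 0.00272). In both, 3-4 weeks library 3 was nearest to the 0-3 days values, and without it the changes were -3.63 and -2.90. The count of lower members was 3 without 3-4 weeks library 1, 4 without 3-4 weeks library 2 and 4 without 0-3 days library 2, and the member called higher, Ifit2 (log2 change 0.37, adjusted p = 0.0494), was lost without any 1 of the 6 libraries (adjusted p 0.0507 to 0.14) and with DESeq2's size factors, no filter or no robust estimation (adjusted p 0.0508 to 0.0584). Of 21 complement genes, 5 were lower and none higher, and without 3-4 weeks library 3, 9 were lower. C3, the central component, had 2.07, 0.0999 and 5.3 CPM in 3-4 weeks cells, against 33.2, 36.1 and 18.5 CPM in 0-3 days cells (log2 change -3.56, SE 0.73, adjusted p = 0.00153). Chosen after their values were seen, the acute-phase genes Lcn2, an iron-siderophore binder, and Clu, the chaperone clusterin, were among the genes that fell most: Lcn2 had 0.659, 0.899 and 5.15 CPM in 3-4 weeks cells, against 65.5, 111 and 42.9 CPM in 0-3 days cells (log2 change -5.04, SE 0.69, adjusted p = 3.45e-05) and Clu had 10.5, 9.79 and 26.2 CPM in 3-4 weeks cells, against 292, 299 and 217 CPM in 0-3 days cells (log2 change -4.12, SE 0.47, adjusted p = 4.32e-06). Without 3-4 weeks library 3 the changes of C3, Lcn2 and Clu were -4.72, -6.54 and -4.73.

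Calls went both ways among oxidative stress and hypoxia genes, where 27.0% of all genes were called. In the oxidative stress list 6 of 24 were higher and 3 lower (1 lower without 3-4 weeks library 1). Gpx3, the secreted glutathione peroxidase, had 633, 538 and 786 CPM in 3-4 weeks cells, against 193, 169.6 and 167 CPM in 0-3 days cells (log2 change 1.89, SE 0.23, adjusted p = 1.14e-05), and Nox4, the NADPH oxidase of fibroblasts, had 11.8, 11.5 and 7.09 CPM in 3-4 weeks cells, against 5.92, 3.34 and 4.41 CPM in 0-3 days cells (log2 change 1.15, SE 0.27, adjusted p = 0.00404). Sod2, the mitochondrial superoxide dismutase and an NF-kappaB target, had 101, 77 and 153 CPM in 3-4 weeks cells, against 293, 513 and 217 CPM in 0-3 days cells (log2 change -1.63, SE 0.35, adjusted p = 0.00202). None of the 3 had overlapping ages. Of 22 unfolded protein and amino acid stress genes, 5 were higher and none lower (1 lower without 3-4 weeks library 3), a share called no larger than that of all genes: Herpud1 (0.69, SE 0.10), Trib3 (1.12, SE 0.24), Ddit3 (0.81, SE 0.16), Ddit4 (1.06, SE 0.24) and Sesn2 (0.59, SE 0.12). Hspa5, the main chaperone of that response, was at 0.10 (adjusted p = 0.485). Of 13 hypoxia genes, 2 were higher and 6 lower. Egln3, an oxygen-sensing hydroxylase, had 2.12, 1.3 and 2.91 CPM in 3-4 weeks cells, against 13.6, 23 and 17.9 CPM in 0-3 days cells (log2 change -3.10, SE 0.33, adjusted p = 1.37e-06), and Epas1, a hypoxia-inducible factor, fell by 1.02 (SE 0.24, adjusted p = 0.00446). Without 3-4 weeks library 1 or 0-3 days library 2, 1 hypoxia gene was higher.

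Proliferation genes were not called, with 1 exception among 31, Tyms (thymidylate synthase; log2 change -0.68, SE 0.21, adjusted p = 0.0206, and not called without 3-4 weeks library 1 or 3 or 0-3 days library 3, at adjusted p 0.0563 to 0.109), and the median log2 change was -0.88. Mki67, a marker of dividing cells, had 52.5, 296 and 165 CPM in 3-4 weeks cells, against 323, 299.5 and 289 CPM in 0-3 days cells (log2 change -0.83, SE 0.53, adjusted p = 0.248). At 3-4 weeks the libraries spanned the whole range, with number 1 lowest and number 2 at the level of the 0-3 days libraries, which lay close together. Without 3-4 weeks library 2, 24 of these genes were lower; without 3-4 weeks library 1 or 3, or 0-3 days library 3, none was. Of 19 senescence and p53 genes, 6 were higher and 1 lower (2 lower without 3-4 weeks library 1 or 2 or 0-3 days library 1). Of all genes, 27.0% were called. Cdkn2a, the locus of the p16 and p19ARF inhibitors, had 8.14, 6.54 and 7.24 CPM in 3-4 weeks cells, against 4.2, 4.75 and 4.04 CPM in 0-3 days cells (log2 change 0.75, SE 0.21, adjusted p = 0.0107), and Glb1, the lysosomal beta-galactosidase, had 198, 166 and 173 CPM in 3-4 weeks cells, against 127, 114 and 113 CPM in 0-3 days cells (log2 change 0.60, SE 0.09, adjusted p = 3.57e-05). Cdkn1a, the p21 inhibitor, stood at 127, 63.1 and 76.1 CPM in 3-4 weeks cells, against 65.6, 68 and 95 CPM in 0-3 days cells (adjusted p = 0.643), highest in 3-4 weeks library 1.

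Among fibroblast markers, 6 of 14 were higher and 2 lower, where 27.0% of all genes were called. Thy1, the surface antigen CD90 (Rnor_6.0 chromosome 8, 48382121 to 48386935), had 247, 240 and 254 CPM in 3-4 weeks cells, against 61.9, 56.4 and 67 CPM in 0-3 days cells (log2 change 2.0, SE 0.14, adjusted p = 1.81e-09). Ddr2, a collagen receptor, rose by 0.70 (SE 0.13, adjusted p = 0.000404). Dcn, the proteoglycan decorin, had 359, 436 and 866 CPM in 3-4 weeks cells, against 1783, 1814 and 1139 CPM in 0-3 days cells (log2 change -1.51, SE 0.49, adjusted p = 0.0292), and Lum, the proteoglycan lumican, fell by 1.49 (-2.13 without 3-4 weeks library 3); neither was called without 3-4 weeks library 1 or 2 or 0-3 days library 1 or 2 (adjusted p for Dcn 0.0676 to 0.118, for Lum 0.0807 to 0.13) or with no filter on low counts (0.0588 and 0.062). Of 11 endothelial markers tested 5 were lower and 1 higher; Cdh5, the endothelial cadherin, had 0.565, 0.55 and 0.102 CPM in 3-4 weeks cells, against 7.97, 6.12 and 4.41 CPM in 0-3 days cells (log2 change -3.90, SE 0.74, adjusted p = 0.000787). The summed level of the list went the other way, at 569 to 786 CPM in 3-4 weeks cells and 497.5 to 535 CPM in 0-3 days cells, and most of it was Eng, the member called higher, which fibroblasts also express, at 554.5, 504.5 and 705 CPM in 3-4 weeks cells, against 405, 366 and 352 CPM in 0-3 days cells. Of 11 epicardial and mesothelial markers 3 were lower, a share called about that of all genes. Among them was Msln, mesothelin, with 0.47, 0.3 and 3.42 CPM in 3-4 weeks cells, against 11.5, 14.6 and 8.78 CPM in 0-3 days cells (log2 change -3.07, SE 0.78, adjusted p = 0.00713, and -4.89 without 3-4 weeks library 3). The lymphocyte genes Cd3e, Cd3d and Cd3g and the adipocyte gene Adipoq had no count in any of the 6 libraries. None of 11 mitochondrially encoded genes was called (1 higher without 3-4 weeks library 1 or 3), and the mitochondrial share of counts was 3.05 to 3.55% in 3-4 weeks cells and 3.11 to 3.26% in 0-3 days cells.

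The same ages were also compared in 5.5 mM glucose. There 3457 genes were called (25.0%), and 2750 were called with the same direction at both glucose levels, 73.8% of the calls in high glucose and 79.5% of those in 5.5 mM, with none called in opposite directions. The libraries of the 2 glucose levels are not independent: same-numbered libraries of an age deviated together from their group means, with correlations of 0.57 to 0.67 at 3-4 weeks and 0.20 to 0.32 at 0-3 days. Col3a1 changed by 1.34 in high glucose and 1.23 in 5.5 mM, Thy1 by 2.0 and 1.91, Igf1 by 1.65 and 1.69, Insig1 by 1.33 and 1.23, and Cxcl12 by -1.53 and -1.55. Collagens held 13 higher of 17 in high glucose and 14 in 5.5 mM, and cholesterol and fatty acid synthesis 24 and 20 of 28.

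The dependence of the age difference on glucose was tested gene by gene. In the fit of group means 0 of 13806 genes were called by edgeR's quasi-likelihood test (smallest adjusted p = 1), with 128 at an unadjusted p under 0.05 (0.927%), and DESeq2's Wald test called 0, with 140 at an unadjusted p under 0.05. With same-numbered libraries of an age treated as pairs, 2 genes were called and 734 had an unadjusted p under 0.05. Calibrated p-values with no true difference would put a share of 0.05 of the genes under that threshold. The count from pairs was near that share. The count from group means was far below it, so the lack of calls there does not show that the age differences were equal. Tiparp, a target of the aryl hydrocarbon receptor, had 14.5, 14.1 and 17.4 CPM in 3-4 weeks cells, against 33.4, 52.9 and 49.7 CPM in 0-3 days cells in high glucose, and 15.8, 15.3 and 16.6 CPM in 3-4 weeks cells, against 20.0, 25.4 and 25.2 CPM in 0-3 days cells, in 5.5 mM. Its log2 change with age was -1.56 in high glucose and -0.57 in 5.5 mM, and the difference was -0.98 (SE 0.13, adjusted p = 0.00356). Creb3l1, a membrane-bound transcription factor of secretory cells, had 97.1, 119 and 126 CPM in 3-4 weeks cells, against 136, 141 and 120 CPM in 0-3 days cells in high glucose, and 106, 113 and 119 CPM in 3-4 weeks cells, against 86.3, 85.8 and 90.2 CPM in 0-3 days cells, in 5.5 mM. Its log2 changes were -0.21 and 0.36, and the difference was -0.58 (SE 0.09, adjusted p = 0.021). In both genes the 3-4 weeks values lay close together at the 2 glucose levels and the 0-3 days values were higher in high glucose. These are the values by which the genes were picked.

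**Figure D5:**
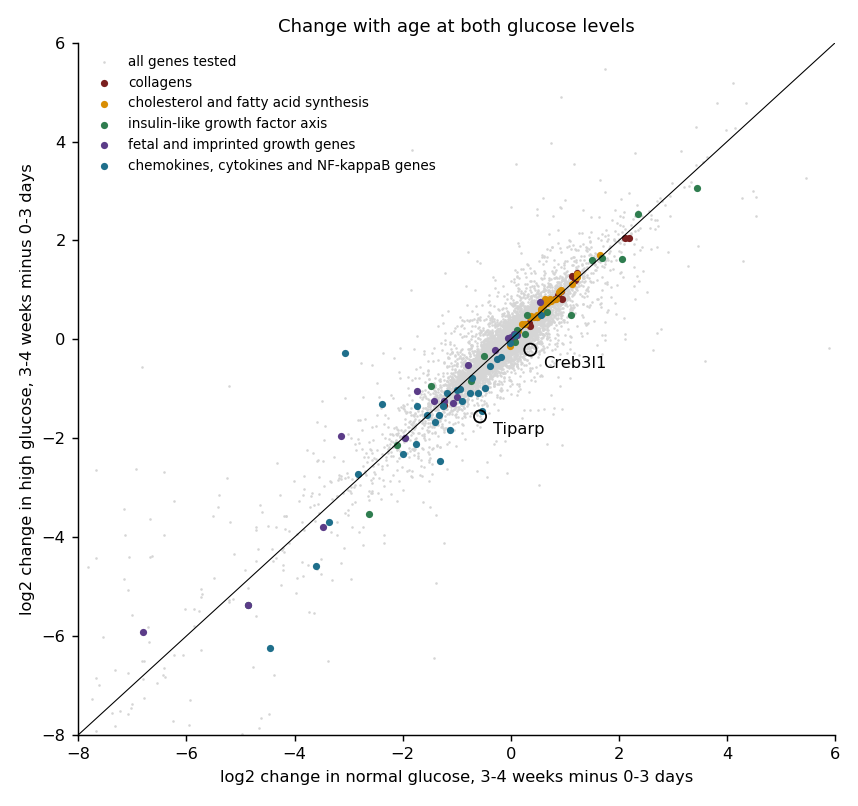
Each grey point is a gene tested, with its log2 change (3-4 weeks minus 0-3 days) in 5.5 mM (normal) glucose on the x axis and in high glucose on the y axis; 57 genes lie outside the drawn range of -8 to 6. Coloured points are members of 5 gene lists, the line marks equal change, and circles mark Tiparp and Creb3l1. Members of the lists scatter about the line, Tiparp and Creb3l1 below it.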

How the data were processed

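Total RNA from each library was sequenced. The deposited table holds raw counts and FPKM (scaled to gene length and library total) per gene for all 24 libraries; HISAT2 2.0.4, StringTie 1.3.0, edgeR and the build Rnor_6.0 are named in the submitters' processing notes, with no annotation release or strand setting given in the sources used here, so overlapping or antisense genes may share counts. The authors' counts were fitted here with edgeR 4.0.16 in R 4.3.3 (TMM scaling, filterByExpr with a minimum count of 10, robust quasi-likelihood fit of 8 group means over all 24 libraries), which kept 13806 of 30957 genes; the contrast was 3-4 weeks minus 0-3 days in high glucose, with Benjamini-Hochberg adjustment. CPM values carry the TMM scaling. Each SE was obtained from the log2 change and its F statistic. FPKM served only to compare levels between genes. Counting intervals and floors cover counting error only. Totals of 19257141 to 21836249 counts lie behind each value.

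The members and the 43 gene lists were chosen with earlier results of these data known. Genes named are the 12 largest called changes per direction (mean log2 CPM of at least 1, ages not overlapping), the 5 most abundant called genes per direction, up to 4 called members of a list by adjusted p, a set of textbook fibroblast genes and the 6 smallest p of the interaction; not all of these are printed, and any other gene was chosen after its values were seen. Same-numbered libraries of the 2 glucose levels of an age were taken as pairs because their deviations from the group means correlated (0.57 to 0.67 at 3-4 weeks, 0.20 to 0.32 at 0-3 days), a pairing that the labels do not state. The fits were tested on simulated data. Alternatives were DESeq2 1.42.0, its size factors, no filter on low counts, no robust estimation, fits to fewer libraries, replicate blocks and leaving out each library. A few genes of the lists are counted but not reported here by name.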

Additional observations from a re-analysis of the deposited data

Results flagged for a closer look

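Both genes listed here were picked out because their difference with age was not the same at the 2 glucose levels, by edgeR's quasi-likelihood test of the difference itself with same-numbered libraries of an age as pairs. For Tiparp (Rnor_6.0 chromosome 2, 157316266 to 157341469) the log2 change with age was lower by 0.98 in high glucose than in 5.5 mM, at -0.98 (SE 0.13, adjusted p = 0.00356). For Creb3l1 (chromosome 3, 80892435 to 80933283) it was -0.58 (SE 0.09, adjusted p = 0.021). Without the pairing the differences were -1.0 (SE 0.29) and -0.58 (SE 0.20), and the adjusted p was 1 for both. All 3 of the 0-3 days libraries in high glucose lay above all 3 of those in 5.5 mM for either gene, and the 3-4 weeks libraries overlapped between the glucose levels. The genes were picked by a test of these same values, so this separation is no further support.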

How the results depend on the processing

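The 3728 calls stayed within 1.5 times under the alternatives of scaling, test, filter and robust estimation, at 3361 to 3943. Fitted to the 6 high glucose libraries alone, 2135 genes were called, 1102 higher and 1033 lower, and 2080 of them were called in the fit of all libraries too. In that smaller fit 9 chemokine and NF-kappaB genes (16 as reported), 5 glycolysis genes (9), 6 growth factor genes (10) and 5 smooth muscle and pericyte markers (8) were lower, and 3 Wnt pathway genes (7) and 2 glucose-responsive genes (5) were higher, and Dlk1 had no value. Leaving out 1 of the 6 libraries at a time gave 2355 to 4196 calls (1211 to 2028 higher and 1144 to 2168 lower), lowest without 0-3 days library 2. Same-numbered libraries of the 2 ages did not deviate together (correlations -0.14, -0.07 and -0.22), so they were not taken as pairs; a replicate block added across all groups gave 4296 calls (2063 higher, 2233 lower). The interaction of age with glucose gave 0 calls in the other alternatives and 2 with the replicate block nested in age, in which same-numbered libraries of the 2 glucose levels form pairs. The cause of these shifts was not tested. Of the 192 genes named, 170 kept their call, or their lack of one, in every alternative, 19 lost it in at least 1, 3 gained one in at least 1, and no called change was reversed. Genes at a few counts in 1 age have fitted changes that depend on the prior count, and their counting ratios rest on totals of 19257141 to 21836249 counts per library. Of 31 cell cycle genes, 1 was called lower as reported, 24 without 3-4 weeks library 2, 17 with the replicate block across all groups, and 0 to 3 in the other alternatives.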

Other observations

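Members of a few small groups of genes outside the accounts above were also called, where 27.0% of all genes were. The retinoid and immediate early genes were called about as often as that. Of 14 retinoid genes 3 were higher and 1 lower. Rarg, a retinoic acid receptor, had 69, 62.1 and 68 CPM in 3-4 weeks cells, against 42.9, 44 and 39.2 CPM in 0-3 days cells (log2 change 0.66, SE 0.08, adjusted p = 7.87e-06), and Aldh1a3, which makes retinoic acid, had 1.74, 1.1 and 2.5 CPM in 3-4 weeks cells, against 4.71, 3.75 and 3.19 CPM in 0-3 days cells (log2 change -1.13, SE 0.29, adjusted p = 0.00651). The ages did not overlap in either gene, while the count of higher members was 1 without 3-4 weeks library 3 or 0-3 days library 2. Of 12 antigen presentation genes 2 were higher and 2 lower, and 1 was lower without 3-4 weeks library 1 or 2 or any 0-3 days library. RT1-Da, a class II chain, had 2.35, 1.3 and 1.63 CPM in 3-4 weeks cells, against 0.514, 0.137 and 0.282 CPM in 0-3 days cells (log2 change 2.47, SE 0.53, adjusted p = 0.00173), in the same libraries as its chaperone Cd74. RT1-CE16, a class I gene, had 0.188, 0 and 0.204 CPM in 3-4 weeks cells, against 4.29, 3.75 and 3.71 CPM in 0-3 days cells (log2 change -4.83, SE 0.69, adjusted p = 5.79e-05); the RT1 genes are a family of close copies that differ between rat strains, and reads may be split among them.

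Of 20 immediate early genes 4 were higher and 1 lower, about the share of all genes called (27.0%). Without 3-4 weeks library 3 or 0-3 days library 3 none was higher. The lower one, Ier3, had 85.8, 68.9 and 67 CPM in 3-4 weeks cells, against 103, 169 and 153 CPM in 0-3 days cells (log2 change -0.94, SE 0.22, adjusted p = 0.00386). In the glial list 2 of 7 were higher and 1 lower, with a median log2 change of 0.04 (-0.34 to 0.22 over the alternatives). Mbp, the myelin basic protein gene and a higher member, had 23.8, 27.9 and 23.4 CPM in 3-4 weeks cells, against 16.1, 12.9 and 12.2 CPM in 0-3 days cells (log2 change 0.87, SE 0.12, adjusted p = 3.57e-05). The skeletal muscle and myoblast list held 2 lower and 1 higher of 3 tested, with 0 or 1 higher over the alternatives. Its member Acta1, the skeletal alpha-actin that neonatal heart muscle also uses, had 0.0941, 0.25 and 0.612 CPM in 3-4 weeks cells, against 8.66, 10.3 and 5.49 CPM in 0-3 days cells (log2 change -4.67, SE 0.46, adjusted p = 4.05e-07). None of 4 Y-linked genes tested was called.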
